A study of Drosophila melanogaster with 4 samples.

Results

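Translation initiation and elongation factor genes were taken as all genes whose symbol begins with eIF, eEF, Ef1 or EF2 and that had a probe set matching no other gene. The rule found 42 genes with 48 probe sets, out of 10844 named genes and 13966 probe sets on the arrays. They comprise 1 gene of the eIF1 group, 7 of eIF2, 16 of eIF3, 10 of eIF4, 2 of eIF5, 1 of eIF6 and 5 of elongation. RefSeq's table holds 52 symbols of this kind. The other 10, eIF1A, eIF2alpha, eIF2gamma, eIF2D, eIF4B, eIF4EHP, eIF4H1, eEF1alpha1, eEF1beta and eEF2, are not analysed here.

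The arrays hold total RNA of whole adult Drosophila melanogaster, with 1 sample on each of 4 one-colour Affymetrix arrays. All 4 form a single baseline group. These flies had been put on a diet without yeast early in the third larval instar and were still on it when killed, 4 days after emergence, just before other flies were given yeast again. The labels order the samples as hours -4, -3, -2 and -1 for a change-point analysis, and they are called libraries 1, 2, 3 and 4 here. Genotype, sex, flies per sample and separate cultures are not stated in the labels, so the p-values measure only the spread between these samples, which may be technical. The design has no contrast group. It allows 3 questions about these genes: how much they vary between baseline samples, whether they follow the labelled hour, and whether any library stands apart.

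Initiation factors bring the small ribosomal subunit, the initiator tRNA and the mRNA together. eIF1 guards start codon choice, eIF2 carries the initiator tRNA as a GTP complex and is recharged by eIF2B, eIF3 is a large scaffold on the small subunit, and the eIF4 proteins bind the cap and unwind the leader of the mRNA. eIF5 triggers GTP hydrolysis on eIF2, eIF5B joins the subunits, and eIF6 keeps the free large subunit from joining too early. Elongation factors then deliver aminoacyl-tRNAs and move the ribosome along the message. In flies, yeast is the main dietary source of protein, and amino acids reach translation through the TOR pathway and eIF2 kinases.

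Each probe set has a normalized linear intensity in each library. A probe set's intensity depends on its probes, so levels are compared between libraries within a probe set and never between genes. A gene with several probe sets is represented by the one with the highest mean. Among 23 control probe sets for sequences not in the fly, the median was 46.1 to 48.7 and the brightest 119 to 133 over the libraries. Of the 42 genes, 32 lay above the intensity filter and entered the tests, and 29 of these exceeded the brightest negative control in every library. eIF2Bgamma, eIF2Bepsilon and eIF4G2 did not. Control probe sets set libraries 3 and 4 apart: bacterial hybridisation controls averaged 1.59 and 1.29 times their level in library 1, against 0.927 times in library 2. The 3' to 5' ratio of the GAPDH control transcript stood at 3.73 and 4.02 there, while libraries 1 and 2 had 3.05 and 2.97. Whole-fly RNA cannot separate fewer cells of a type from less RNA per cell. Markers of muscle, nervous system, gut and fat body were present, with 5 of 5, 2 of 3, 4 of 5 and 5 of 5 measured genes above the brightest negative control (133) in every library.

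The 32 tested genes differed by at most 1.37-fold between the 4 baseline samples. Over the 32 tested genes, the ratio of the highest to the lowest library ran from 1.04 for eIF2Bdelta to 1.37 for eIF3l. Next to eIF3l came eIF6 at 1.31, eEF1alpha2 at 1.29 and eIF2A at 1.26. The coefficient of variation (CV, the SD over the mean of 4 libraries) had a median of 6.40% over these genes and of 5.24% over all 8379 tested probe sets, and 21 of the 32 genes lay above the latter value. Relative to the SD of log2 intensity expected for probe sets of like brightness, the median member stood at 1.03 and the median probe set at 0.93. None of the 32 genes had a variance above expectation in the limma-based test, in which 0.274% of all tested probe sets passed, and the smallest adjusted p among the genes was 0.918, for eEF1alpha2. At an unadjusted p under 0.05 the count was also 0, against 5.53% of all tested probe sets.

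**Figure D1:**
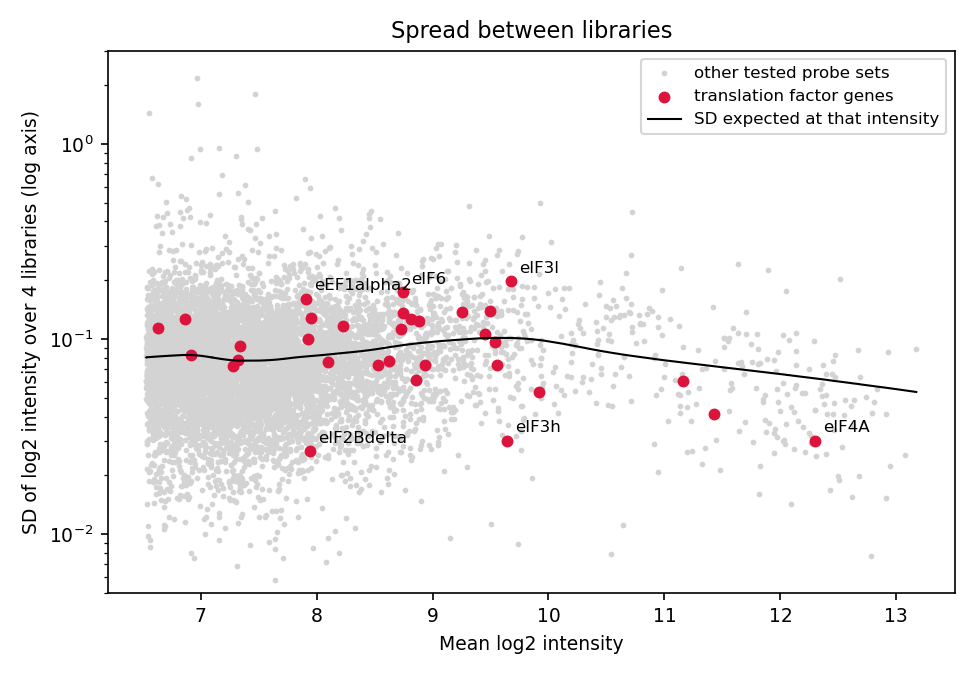
SD of log2 intensity over the 4 libraries (log axis) against mean log2 intensity for each tested probe set. Grey points are other probe sets, red points the 32 translation factor genes, and the line is the SD expected at that intensity. The red points lie on both sides of the line, with ratios of SD to expected SD of 1.95 for eIF3l and 1.98 for eEF1alpha2 at the top and 0.30 for eIF3h at the bottom.

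In the eIF1 group, eIF1, the factor that monitors start codon recognition, had intensities of 729.7, 755, 689 and 638 in libraries 1 to 4 (703 ± 51.2, SD, n = 4). Its value in library 4 lay below the other libraries. The slope over the labelled hour was -0.07 ± 0.04 log2 units per hour (SE, limma adjusted p = 0.471).

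The eIF2 group held 1 subunit of the tRNA carrier, the 5 subunits of its exchange factor, and eIF2A, a separate protein that binds initiator tRNA outside the main route. eIF2beta, which helps eIF2 meet eIF5 and eIF2B, had 746, 813, 726 and 735 in libraries 1 to 4 (755 ± 39.3, SD, n = 4), with library 2 highest and the others close together. eIF2A had 735, 811, 719 and 641, a CV of 9.58%, the largest of the group. Library 4 was lowest for eIF2A, with a difference from the mean of the other libraries of -0.23 ± 0.10 (log2, SE, limma adjusted p = 0.571).

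The eIF2B subunits did not share a profile over the libraries. The regulatory subunit genes gave 152, 147, 161 and 164 for eIF2Balpha and 243, 242, 247 and 252 for eIF2Bdelta, both highest in library 4. The third regulatory subunit gene, eIF2Bbeta, had 169, 162, 158 and 149 and was lowest there. Of the catalytic pair, eIF2Bepsilon, the exchange enzyme itself, had 105, 108, 94.8 and 91.4, with libraries 3 and 4 below libraries 1 and 2, and its partner eIF2Bgamma had 117, 129, 114 and 124, with no such split. eIF2Bdelta had the smallest CV of all tested members, 1.85%. None of these 7 genes passed any test, and the median slope was 0.01 for the 5 eIF2B genes and -0.02 for the group.

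All 13 core subunits of eIF3, a to m, were measured and tested. The ratio of the highest to the lowest library was largest for eIF3l, at 1.37, and 10 of the 13 were lowest in library 4, against 32.8% of all tested probe sets. Slopes over the labelled hour were negative for 12 of the 13, against 56.9% of all, with a median of -0.05 log2 units per hour against -0.01 over all and -0.02 in the brightest 25% of tested probe sets. In that brightest 25%, slopes were negative for 68.6% and library 4 was lowest for 43.4%. After quantile normalization, 8 of the 13 slopes were negative and 7 of the 13 genes were lowest in library 4, against 49.3% and 27.1% of all tested probe sets, and the median slope of the subunits was -0.02. No single subunit passed the test for the slope, where 0% of all tested probe sets passed, or for library 4, where 0.0119% passed.

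eIF3a and eIF3e lay furthest below the other libraries in library 4 among the subunits. eIF3a, the largest scaffold subunit, had 259, 267, 249.6 and 218 in libraries 1 to 4. eIF3e, another subunit of the core scaffold, had 486, 454, 467 and 397. In both, libraries 1 to 3 lay together and library 4 below them. The differences of library 4 from the mean of the other libraries were -0.24 ± 0.08 for eIF3a and -0.24 ± 0.09 for eIF3e (log2, SE), each with a limma adjusted p of 0.554.

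Other subunits were lower in libraries 3 and 4 than in libraries 1 and 2. eIF3b, the subunit that anchors the eIF3i and eIF3g module, had 466, 433, 410.0 and 389 in libraries 1 to 4. eIF3c, which in yeast binds eIF1 and eIF5, had 317, 326, 284 and 277. eIF3d1, whose human counterpart can bind the cap of some mRNAs, had 495, 521, 448 and 433. In all, 7 of the 13 subunits had libraries 3 and 4 both below libraries 1 and 2, against 28.3% of all tested probe sets. Slopes of eIF3b, eIF3c and eIF3d1 were -0.09 ± 0.03, -0.08 ± 0.03 and -0.08 ± 0.04 (log2 per hour, SE, limma adjusted p 0.375, 0.419 and 0.441).

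The other subunits apart from eIF3l had smaller CVs, from 2.10% to 7.14%, than the 5 just described, which had 7.82% to 8.62%. eIF3h had 803, 787, 820.0 and 783, with the smallest CV of the group. eIF3f1 had 960.1, 995, 997 and 922, and eIF3g1, the RNA-binding partner of eIF3i, had 366, 374, 392 and 347. In both, library 4 was lowest and library 3 highest. eIF3i, a WD-repeat subunit, had 523, 486, 484 and 463, eIF3k 489, 473, 445 and 453, and eIF3m 784, 765, 751 and 674. eIF3j, a loosely attached subunit, had 270.0 in library 2, against 233, 235 and 238 in libraries 1, 3 and 4.

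eIF3l had the widest spread of the tested members and the opposite order of libraries from most of the complex. It had 759, 716, 837 and 979.5 in libraries 1 to 4 (823 ± 116, SD, n = 4), with library 4 highest. In mammals the protein sits beside eIF3k in the complex, and both are absent from budding yeast eIF3. The slope was 0.13 ± 0.04 log2 units per hour (SE, limma adjusted p = 0.354). The value of library 4 over the others was 0.35 ± 0.11 (log2, SE, limma adjusted p = 0.554). With library 3 left out, eIF3l passed both tests, with a slope of 0.14 ± 0.04 (limma adjusted p = 0.0310) and a difference of library 4 from libraries 1 and 2 of 0.41 ± 0.09 (limma adjusted p = 0.00458). In that setting 3.83% of all probe sets passed for the slope and 6% for library 4, and the spread for library 4 came only from libraries 1 and 2, the pair with the highest correlation. eIF3a passed there too, lower by -0.27 ± 0.08 (limma adjusted p = 0.0307).

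**Figure D2:**
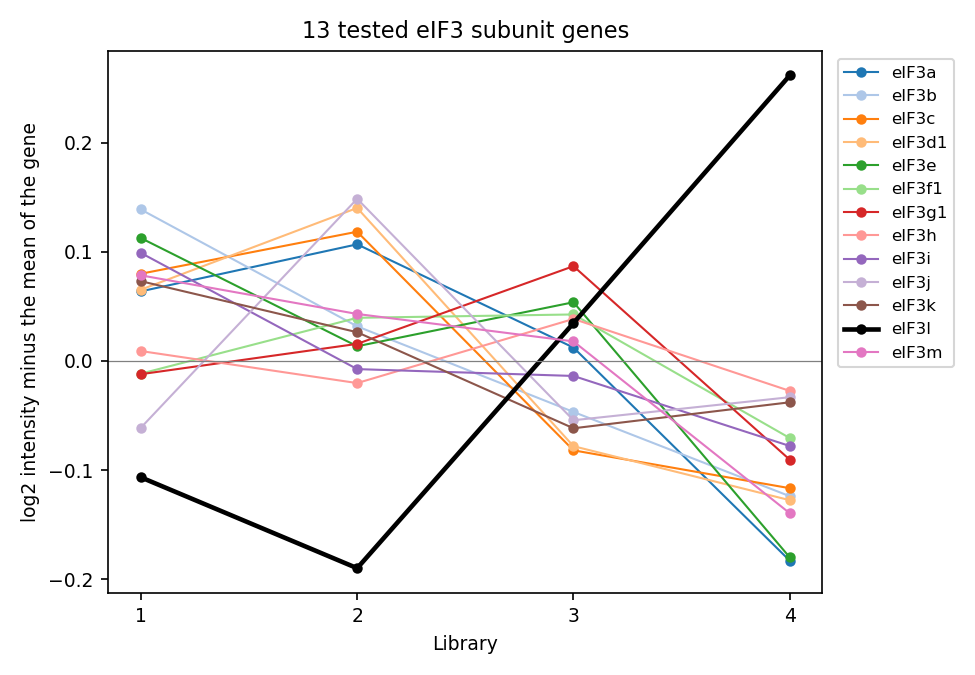
Log2 intensity minus the mean of the gene in each library for the 13 core eIF3 subunit genes, 1 line per gene, eIF3l in black. Library 4 is the lowest point for 10 of the lines, while eIF3l has its highest point there and its lowest in library 2.

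In the eIF4 group, eIF4A, the helicase that unwinds the mRNA leader, had 4988, 5056, 5162 and 4914 in libraries 1 to 4, a CV of 2.09%. The manufacturer's control probe sets for the same transcript were independent of the membership rule. At its 3' end they gave 4527, 4636, 4699 and 4662, and in the middle 4825, 5285, 4673 and 5190. At its 5' end they gave 1753, 1969, 1627 and 1678. The 3' and member probe sets were nearly level over the libraries, while the 5' probe set was lowest in library 3. The 3' to 5' ratio of eIF-4a stood at 2.89 and 2.78 in libraries 3 and 4, while libraries 1 and 2 had 2.58 and 2.35, so that it was higher in the later pair, as in the GAPDH control. The part of this 3' to 5' difference in other members was not tested.

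The cap-binding protein gene eIF4E1 had 654, 636, 629.6 and 531 in libraries 1 to 4 (613 ± 55.6, SD, n = 4), with library 4 below the others. The difference of library 4 was -0.27 ± 0.09 (log2, SE, limma adjusted p = 0.554) and, with library 3 left out, -0.28 ± 0.08 (limma adjusted p = 0.0391), where 6% of all tested probe sets passed. Without library 3, the spread for library 4 came only from libraries 1 and 2, the pair with the highest correlation. eIF4G1, the scaffold that joins eIF4E, eIF4A and eIF3, had 274, 295, 260.3 and 270.3, with library 2 highest. eIF4G2, a paralog of eIF4G1 needed for male germ cell differentiation, had 111, 130.4, 119 and 107, again highest in library 2. It exceeded the brightest negative control in library 2 only, where that control had 119.

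Downstream of the scanning complex, eIF5 had 172, 169, 159.7 and 149, with libraries 3 and 4 below libraries 1 and 2. eIF5B had 387, 428, 380.3 and 386, with library 2 above the others. eIF6 had 464, 416, 479.7 and 367, the widest spread among these, with a CV of 11.8%, which was 7.34% without library 4. The slopes were -0.07 ± 0.03 for eIF5, -0.02 ± 0.04 for eIF5B and -0.08 ± 0.05 for eIF6 (log2 per hour, SE, limma adjusted p 0.404, 0.879 and 0.567).

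Among the elongation factors, eEF1alpha2, an isoform of the GTPase that delivers aminoacyl-tRNA, had 272, 253, 210.3 and 230.3 in libraries 1 to 4. eEF1delta, a subunit of its nucleotide exchange complex, had 441, 478, 381 and 423. Both were lower in libraries 3 and 4 than in libraries 1 and 2, and lowest in library 3. The difference of library 3 from the mean of the others was -0.26 for eEF1alpha2 and -0.23 for eEF1delta (log2, limma adjusted p 0.700 and 0.776), where 0.704% of all tested probe sets passed. With library 4 left out, both passed against libraries 1 and 2, at -0.32 ± 0.08 and -0.27 ± 0.08 (limma adjusted p 0.00596 and 0.0368), in a setting where 6.02% of all probe sets passed. Without library 4, the spread for library 3 came only from libraries 1 and 2, the pair with the highest correlation. Gut and fat body markers were also lower in sum in libraries 3 and 4. The 5 gut genes summed to 10737, 10839, 8128 and 8882 in libraries 1 to 4, and the 5 fat body genes to 1452, 1579, 1198 and 1363. Most of the gut sum came from the trypsin genes betaTry (6521, 6686, 5079 and 5283) and alphaTry (3625, 3612, 2541 and 3071). In the fat body list, the yolk protein genes were lower in libraries 3 and 4 than in libraries 1 and 2. Yp1 had 249, 258, 185 and 206, Yp2 had 222, 268, 217 and 200, and Yp3 had 369, 370, 298 and 301. FASN1 had 415, 444, 277 and 407, with library 4 close to library 1. Not every gene of these lists fell: Jon74E had 134, 137, 250 and 153, and the fat body gene Lsp2 had 198, 239, 221 and 249. In library 3, Amy-d, a gut amylase gene, and FASN1, a fatty acid synthase gene of the fat body, were lower (limma adjusted p 0.0332 and 0.0227), while the gut protease gene Jon74E was higher (limma adjusted p = 0.00229). The part of these tissues in the values of eEF1alpha2 and eEF1delta was not tested.

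eEF1gamma, the structural subunit of the same exchange complex, had 2723, 2874, 2721 and 2701, a CV of 2.90%, so it did not follow eEF1delta in library 3. eEF5, the current fly symbol for eIF5A, which relieves stalled ribosomes at proline-rich stretches, had 2265, 2225, 2225 and 2432, with library 4 highest. Genes for enzymes that modify these factors were listed beside them: Dhps and nero, which make the hypusine of eEF5, and Dph1, Dph2 and Dph5, which make the diphthamide of eEF2. Of these 5 measured genes 4 were tested and 0 passed any of the tests in limma, with intensities from 93.1 to 102 for Dhps and from 133 to 146 for nero.

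**Figure D3:**
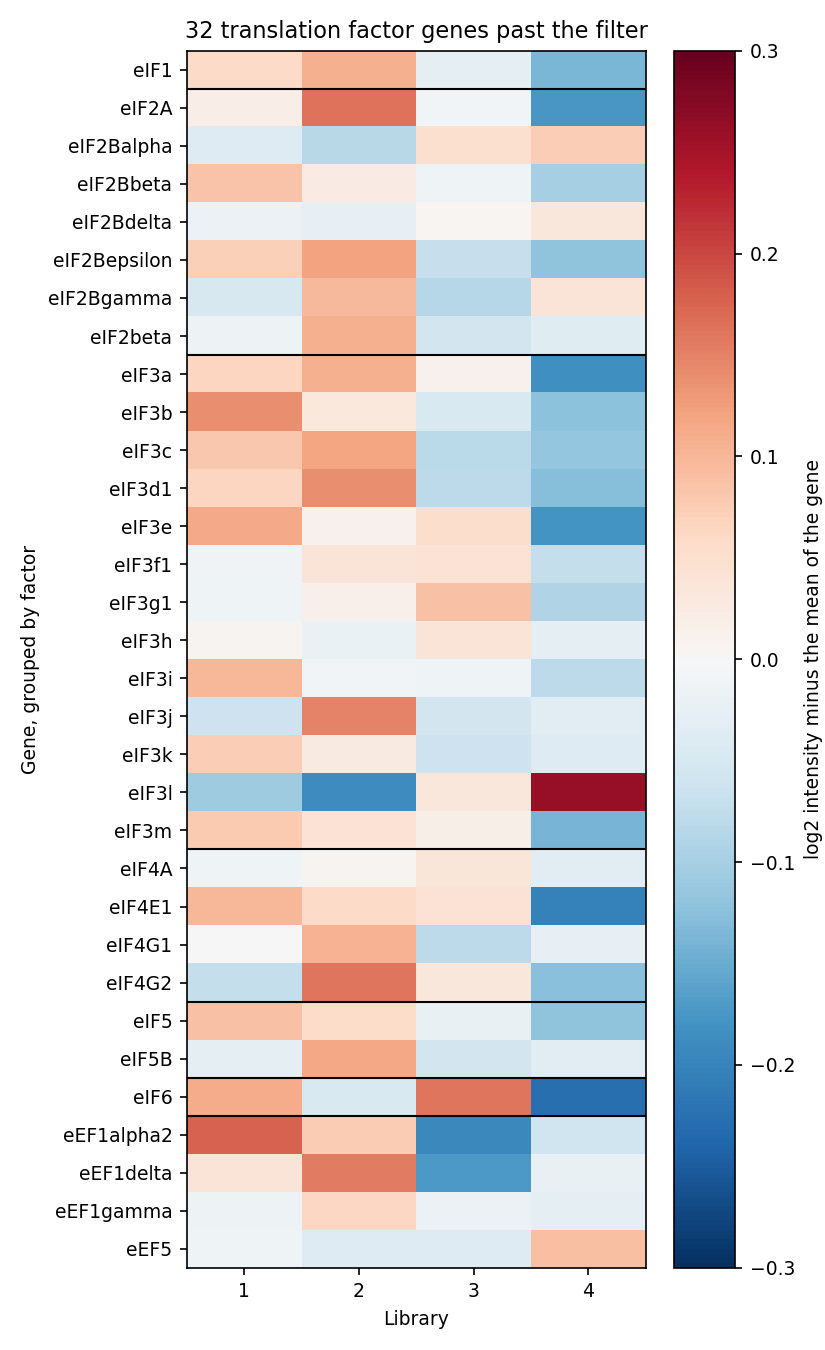
Log2 intensity minus the mean of the gene for the 32 tested members, 1 row per gene in the order eIF1 to eIF6 and elongation, 1 column per library. Blue (below the mean) fills most of the column of library 4, where 20 of the 32 genes were lowest, and eIF3l is the darkest red cell there.

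Across the factor groups the libraries differed by small shifts. The median deviation of the 32 genes from their own means was 0.03, 0.06, -0.02 and -0.07 (log2) in libraries 1 to 4, and over all tested probe sets it was 0.01, 0.01, -0.01 and -0.01. In the brightest 25% of tested probe sets these medians were 0.03, 0.03, -0.01 and -0.04. After quantile normalization those of the 32 genes were -0.01, 0.05, -0.0049 and -0.03, so that library 1 turned sign and the shift of library 4 was smaller. Slopes were negative for 27 of the 32 genes (84.4%), against 56.9% of all tested probe sets, and library 4 was lowest for 20 (62.5%), against 32.8%. Libraries 3 and 4 were both below libraries 1 and 2 for 19 genes (59.4%), against 28.3%, and both above them for 3 (9.38%), eIF2Balpha, eIF2Bdelta and eIF3l, against 17.2%.

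These counts changed with scaling, and the shares over all tested probe sets differed with brightness. The part of brightness in the counts of the members was not tested. Of the 32 genes, 22 belonged to the brightest 25% of tested probe sets, in which 68.6% of slopes were negative, library 4 was lowest for 43.4%, and 38.9% had libraries 3 and 4 below libraries 1 and 2. After quantile normalization the counts were 20 negative slopes (62.5%), 15 genes lowest in library 4 (46.9%) and 9 with libraries 3 and 4 below the first pair (28.1%), against 49.3%, 27.1% and 21.9% of all tested probe sets. Quantile normalization turned the sign of the slope for 7 genes, eIF2beta, eIF3f1, eIF3g1, eIF3h, eIF3j, eIF4A and eIF5B. The slope of eIF3l was 0.16 log2 units per hour after quantile normalization, against 0.13 on the deposited scale, and that of eIF4E1 was -0.04, against -0.09.

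None of the 32 tested genes passed any of the tests with all libraries in and the floor, filter and scaling given above; members below the filter are described separately. For the slope, 9 of the 32 genes (28.1%) had an unadjusted p under 0.05, with 8 negative and 1 positive slope, against 11.6% of all tested probe sets. For library 4 they were 6 (18.8%), 5 lower and 1 higher, against 8.63%. For library 3 the only such gene was eEF1alpha2, lower (3.12%, against 6.46%). For library 2 it was eIF3j, higher (3.12%, against 2.83%), and for library 1 there was none, against 2.05%. After adjustment over all probe sets, the smallest p among the genes was 0.354 for the slope, 0.554 for library 4, 0.700 for library 3, and over 0.99 for libraries 1 and 2, where 0% and 0.107% of all tested probe sets passed. An alternative limma test set the last against the first 2 labelled hours. Its smallest adjusted p was 0.229, for eEF1alpha2, where 0.131% of all passed. Unadjusted, 7 genes (21.9%) were under 0.05, 6 lower and 1 higher, against 12.3% of all.

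Below the filter lay 10 members with mean intensities from 36.8 to 65.7, at the level of negative controls: eIF3d2, eIF3f2 and eIF3g2, which are second copies of eIF3 subunit genes, eIF4E3, eIF4E4, eIF4E5, eIF4E6 and eIF4E7, which are relatives of the cap-binding eIF4E1, eIF4H2, of a family that helps eIF4A, and eEFSec, which delivers selenocysteyl-tRNA. For 6 of them every library lay below the floor of 57.1. Orders of libraries at such levels carry little information on abundance. Library 3 was the highest for 5 of the 10 and library 4 for 4, against 30.5% and 31.1% of all 5587 probe sets below the filter. The 5 were eIF3d2, eIF4E3, eIF4E4, eIF4E5 and eIF4H2. In library 3, eIF4H2 had 73.2, against 61.6 to 66.3 in the others, and eIF3d2 had 40.6, against 33.8 to 37.1.

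eIF4E3, which works with eIF4G2 in male germ cells, had 78.8 in library 3, against 53.2, 56.2 and 56.9 in libraries 1, 2 and 4. eIF4E5 had 59.9 in library 3, against 40.3, 42.2 and 47.4 in libraries 1, 2 and 4. In both, library 3 was above all others. On the deposited values without floor and filter, a setting chosen after the data were seen, eIF4E3 passed in library 3 (limma adjusted p = 0.0438), while 1.02% of all probe sets passed. Its value in library 3 lay below the brightest negative control of that library (126), so no fold is given. With the floor kept but no filter, eIF4E3 and eIF4E5 passed in library 3 and eEFSec in library 4, where 0.924% and 0.759% of all probe sets passed. Libraries raised to the floor have no spread, so the p-values with the floor kept carry no information.

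Most male reproductive markers were also highest in library 3. The testis and accessory gland lists were already known from earlier results of these data to be higher in a single library. Their rise is therefore not an independent result. Of 16 measured testis genes 13 were highest in library 3, and their summed intensity was 4671 in library 3 against 2814 to 2850.4 in the others. The testis genes sa and mia were lowest in library 3. Of 17 measured accessory gland and ejaculatory duct genes 17 were highest in library 3, with a sum of 2932 against 843 to 924. Library 3 was highest for 1928 of all 8379 tested probe sets and for 30.5% of the 5587 below the filter. Of the 17 accessory gland and duct genes 0 exceeded the brightest negative control in every library, and of the 16 testis genes 7 did. No marker was at 0. Among ovary and germline markers, 2 of 13 were highest in library 3, with a sum of 2862 in it against 2916 to 3175. The part of male tissue in the values of eIF4E3 and eIF4E5 was not tested. Of the other eIF4E relatives, eIF4E4 was highest in library 3, at 41.2 against 36.5 to 37.7, while eIF4E6 (50.0 against 45.5 to 53.3) was not, and neither were eIF4E7 and eIF4G2.

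**Figure D4:**
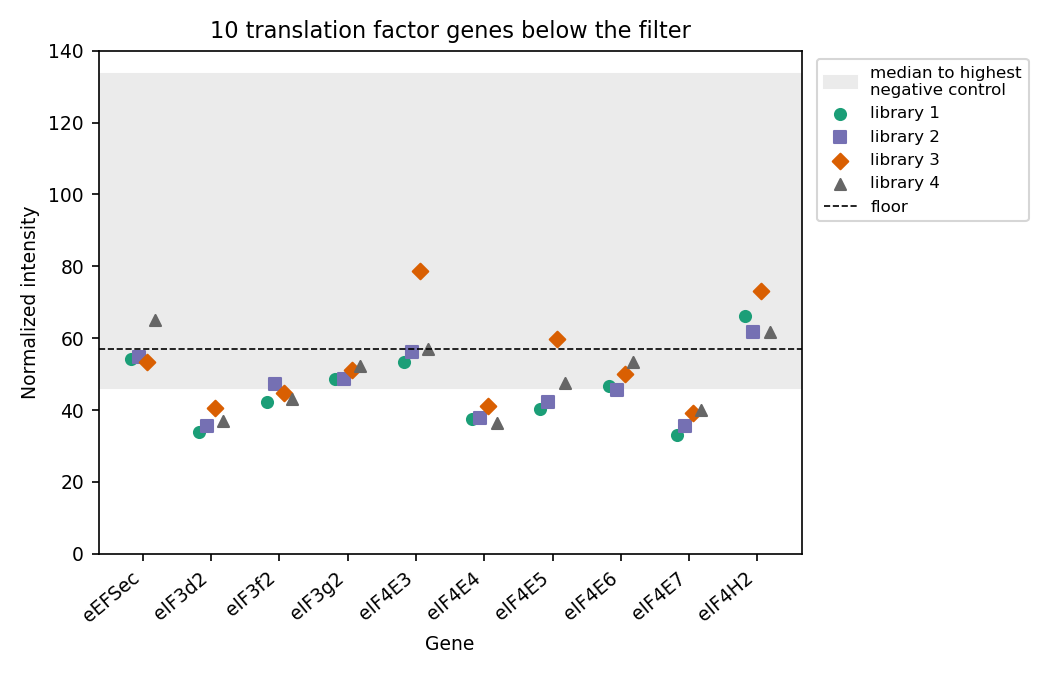
Normalized intensity in each library for the 10 members below the filter. The grey band runs from the median to the brightest negative control (46.1 to 133), and the dashed line is the floor of 57.1. Library 3 is highest for 5 of the 10 genes, eIF3d2, eIF4E3, eIF4E4, eIF4E5 and eIF4H2.

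For 5 genes more than 1 probe set was present, which gives a second reading of the same gene. The 3 probe sets of eIF5B disagreed in library 1: the brightest had 387, 428, 380.3 and 386 over the libraries, the others 365, 357, 307 and 311, and 373, 350.1, 311 and 281. All had library 3 or 4 lowest, and the slopes were -0.02 ± 0.04, -0.09 ± 0.03 and -0.14 ± 0.03 (log2 per hour, SE, limma adjusted p 0.879, 0.383 and 0.298). The second probe set of eIF6 was nearly flat, at 219.9, 217, 212 and 209, with a CV of 2.19% against 11.8% for the first.

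For eIF3h the second probe set, at 167, 174, 172 and 194, was highest in library 4, where the first was lowest. For eIF2Bdelta and eIF4E7 the second probe set lay at 40.3 to 49.5 and at 9.81 to 15.5, against a median negative control of 46.1 to 48.7. The spread of a gene as given above therefore belongs to 1 probe set, and for eIF6, eIF5B and eIF3h another probe set of the same gene gave a different order of libraries or a different spread.

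**Figure D5:**
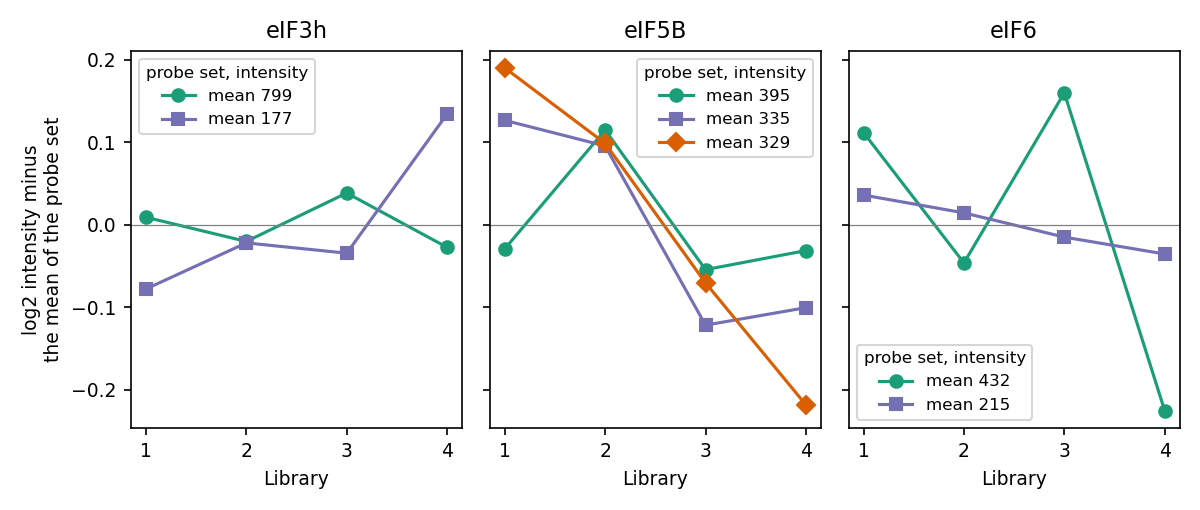
Log2 intensity minus the mean of the probe set in each library for the 3 genes with more than 1 tested probe set, 1 line per probe set, labelled by its mean intensity. The lines of eIF5B all end below 0 in libraries 3 and 4, the lines of eIF3h part in library 4, and those of eIF6 differ in spread, with CVs of 11.8% and 2.19%.

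Partners of these factors outside the family were also described. Of 14 tested partners and regulators of initiation, 0 passed any test in limma. Slopes were negative for 11 of the 14, against 56.9% of all tested probe sets, and for 7 of the 14 after quantile normalization, against 49.3%. The poly(A)-binding protein gene pAbp, which closes the loop between mRNA ends through eIF4G, had 2950.1, 3242, 3183 and 3329.9 in libraries 1 to 4, with library 4 highest. The eIF4E kinase gene Lk6 had 2541, 2824, 2629 and 2548. PEK, an eIF2 kinase, had 154, 161, 166 and 162, and PPP1R15, which directs removal of the phosphate from eIF2, had 199, 198, 199.7 and 201, a CV of 0.65%.

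Of 3 tested genes of termination and rescue, 0 passed any test in limma. Library 4 was lowest for each, against 32.8% of all tested probe sets and 43.4% of the brightest 25%, to which all 3 belonged, and for 2 of the 3 after quantile normalization, against 27.1%. The release factor gene eRF1 had 317, 314, 329 and 263 and its GTPase partner gene eRF3 had 375, 393, 344 and 294, while HBS1, a rescue GTPase, had 555, 565, 575 and 546. The differences of library 4 were -0.28 for eRF1 and -0.33 for eRF3 (log2, limma adjusted p 0.554 each). Of 4 tested mitochondrial translation factor genes 0 passed, and mEFTu1, the mitochondrial counterpart of eEF1alpha, had 302, 324, 281 and 269.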

How the data were processed

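Whole-fly RNA of 4 baseline samples was measured on one-colour Affymetrix arrays. The authors deposited linear intensities that dChip (DNA-Chip Analyzer) had normalized between arrays through invariant probes, per the labels. Its version and background model are not stated there. Low values were set to the 20th percentile of the table (57.1), the log2 scale was used, and the 8379 of 13966 probe sets (44 controls set aside) with a mean log2 value above the 40th percentile were tested. The precision is limited by the 4 arrays. Of these 13966 probe sets, 12443 matched 1 gene in the platform annotation, 327 several and 1196 none. Symbols of 12394 were updated through gene identifiers to RefSeq's table for Release 6 plus ISO1 MT; no coordinates were used, and no sequences are printed.

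R 4.3.3 and limma 3.58.1 were used. Variance over the libraries was tested against the prior variance at like intensity (squeezeVar, robust, trended, upper tail of F). The slope over the labelled hour was tested two-sided with lmFit and eBayes (robust, trended). The same fit set single libraries against the mean of the rest, on the assumption that all vary alike. Benjamini-Hochberg adjustment ran over all tested probe sets, with a threshold of 0.05. The variance, slope and library 3 tests were checked on simulated data, with changes larger than any seen among the tested members. Every member could be named; those given with values whatever they were are core factors, the extremes of each group, members past any test and genes with several probe sets. Other genes of translation were taken from lists of partners and regulators of initiation, termination and recycling, mitochondrial factors and factor-modifying enzymes, beside tissue markers. Members, lists and rules were chosen with earlier results of these data known. Alternatives were other floors, filters, scalings and priors, each replicate left out, every member probe set, platform symbols, and the last against the first 2 labelled hours.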

Additional observations from a re-analysis of the deposited data

Results flagged for a closer look

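For 5 of the 42 members 1 library stood far from the other 3, with a gap, as a share of the whole range, above Dixon's 95% critical value for 4 samples. Chance flags about 1 in 20 groups, and 5.52% of all probe sets on the arrays met the same condition. eIF4E3 was far higher in library 3 (78.8, gap 0.859) and eEFSec in library 4 (65.1, gap 0.880), both at the level of negative controls. eIF3j (270.0, gap 0.875), eEF1gamma (2874, gap 0.875) and eIF5B (428, gap 0.858) were each higher in library 2, by at most 1.13-fold over the next library. For eIF5B this held only for the brightest probe set, and the others were highest in library 1.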

How the results depend on the processing

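With all 4 libraries, no member passed any test under the other floors, the offset, the stricter filter, quantile normalization, median centring, the other priors, every member probe set, platform symbols, or the last against the first 2 labelled hours. Without the filter 2 members passed in library 3 (eIF4E3 and eIF4E5) and 1 in library 4 (eEFSec). All of these sit at the floor in the other libraries, where the spread is 0 by construction. With no floor and no filter, chosen after the data were seen, 1 passed in library 3 (eIF4E3). Leaving out a replicate gave 0 to 1 members for the slope, 0 to 2 for library 3 and 0 to 3 for library 4, and 0 for variability and for libraries 1 and 2. The values above 0 came without library 3 (slope, library 4) and without library 4 (library 3). For the tests of library 3 and library 4, the spread in these settings came only from libraries 1 and 2, the pair with the highest correlation. The cause was not tested. Negative slopes numbered 22 to 28 of 32 with a replicate left out, and genes lowest in library 4 numbered 20 to 26. The median CV of elongation factor genes was 3.16% to 9.30% with a replicate left out, lowest without library 4. With another scaling, the mean intensity of each of the 42 members moved by less than 1 SD in all 84 recomputations. The medians of the libraries were already close, at 111.7 to 112.6, so these means had little room to move. They do not bear on differences between libraries, where quantile normalization turned the sign of 7 of the 32 slopes. No paired analysis was possible because the samples form a single group. At signals near the negative controls, 10 members have no usable order of libraries.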
